A study of Mus musculus with 6 samples.

Results

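The cells lining the intestinal villus fold large amounts of membrane and secreted protein in the endoplasmic reticulum (ER). Messenger RNA of 10 genes of this folding machinery and of 1 of its control pathways was followed here in the duodenal villus epithelium of wild-type and double mutant mice. They are the ER chaperones *Hspa5* and *Hsp90b1*, the disulfide isomerases *Pdia4* and *Pdia6*, the co-chaperones *Dnajb9*, *Dnajc3* and *Sdf2l1*, the transcription factor gene *Xbp1*, and *Ern1* and *Ern2*, which encode the alpha and beta forms of the sensor IRE1. The rule that picks them is a list of gene names and uses no measured value, though the list was drawn up with earlier results of these data known. All 10 were found among the 20409 features of the count table.

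RNA was sequenced as 1 library per mouse from 3 wild-type villus samples (WTV) and 3 double mutant villus samples (DMV), after selection of polyadenylated transcripts. DMV mice (labelled Smad4 knockout; beta-catenin GOF, for gain of function) carried *Smad4* fl/fl, *Ctnnb* exon3 fl/wt and Villin-CreERT2 on a C57BL6-enriched background, so that tamoxifen removes Smad4 and stabilizes beta-catenin wherever the Villin promoter is active, which is the whole intestinal epithelium. They were injected intraperitoneally with 0.05 g/kg tamoxifen on 4 days, and villi were collected 7 days after induction. WTV mice were littermates without injection. Genotype and injection therefore cannot be told apart, and whether the littermates carried the floxed alleles or the Cre is not given in the sources used here. Each group held 1 male (mouse 1) and 2 females (mice 2 and 3), matched for age, with ages not given.

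When unfolded protein builds up in the ER, the unfolded protein response is set off by the sensors IRE1, PERK and ATF6. IRE1 is an enzyme that cuts *Xbp1* mRNA, and the rejoined mRNA encodes the active factor XBP1s, which raises transcription of genes for protein entry into the ER, folding and ER-associated degradation. IRE1 can also cut other mRNAs, a process called regulated IRE1-dependent decay (RIDD). In the gut, IRE1-alpha is found in most cells, while IRE1-beta is known from mucus-secreting goblet cells.

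Between 19678507 and 26337318 reads per mouse were counted, and 3 counts, taken as the detection floor, equal 0.114 to 0.152 CPM (counts scaled to a common library size). This floor covers counting error only. *Smad4* lay at 120, 180.1 and 145 CPM in the WTV mice and at 26.1, 36.8 and 32.1 CPM in the DMV mice, as the labels state, with some reads left in the mutants. Enterocyte markers took 4.69% to 5.24% of the counts in WTV and 3.19% to 3.52% in DMV. These and the later shares of counts are of raw totals, without the scaling between libraries behind the CPM values and the tests. Of these 10 markers 7 were lower and 1, *Fabp1*, was higher (0.82 ± 0.25 on the log2 scale, adjusted p = 0.0331), against 17% and 19.7% of all genes tested. Of 6 stromal markers the highest value in any mouse was 1.88 CPM (*Acta2* in DMV mouse 1). The study's methods took RNA with an integrity number (RIN) above 4, and its value in each mouse was not analysed here. WTV mouse 1 stood apart: goblet cell markers took 0.0114% of its counts, against 1.08% and 1.06% in WTV mice 2 and 3 and 0.494% to 0.548% in the DMV mice. Results for the 10 genes that rest on this mouse are given with and without it, as are those named elsewhere whose call it changes. Exceptions are genes said below to be given with all 6 mice only. These are bulk samples, in which fewer cells of a type and less RNA per cell cannot be told apart.

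Of the 10 genes, 4 rose in the double mutant villi (*Pdia6*, *Pdia4*, *Xbp1* and *Hspa5*), 2 fell (*Dnajb9* and *Ern1*), and 4 did not pass the test. The changes were moderate, from 0.537 times to 1.90 times the wild-type level among the called genes. All 10 passed the filter on low counts and were tested with edgeR's quasi-likelihood test, with Benjamini-Hochberg adjustment over 13346 genes and a threshold of 0.05. Many genes differed between the groups: 36.8% of all genes tested passed in either direction, 19.7% being higher and 17% lower. These were 2632 and 2273 genes, and under library size alone as the scaling 3732 and 1425, with 6 and 1 of the 10 genes. The 10 genes had a median log2 fold change of 0.32, against 0.02 over all genes tested. In 4 genes every DMV mouse lay above every WTV mouse, which held for 28.1% of all genes, and in 2 genes every DMV mouse lay below, which held for 24.2% (52.4% in either direction). None reached an absolute log2 fold change of 2, the fold threshold in the study's methods, together with an adjusted p under 0.05, as 5.3% of all genes did.

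**Figure D1:**
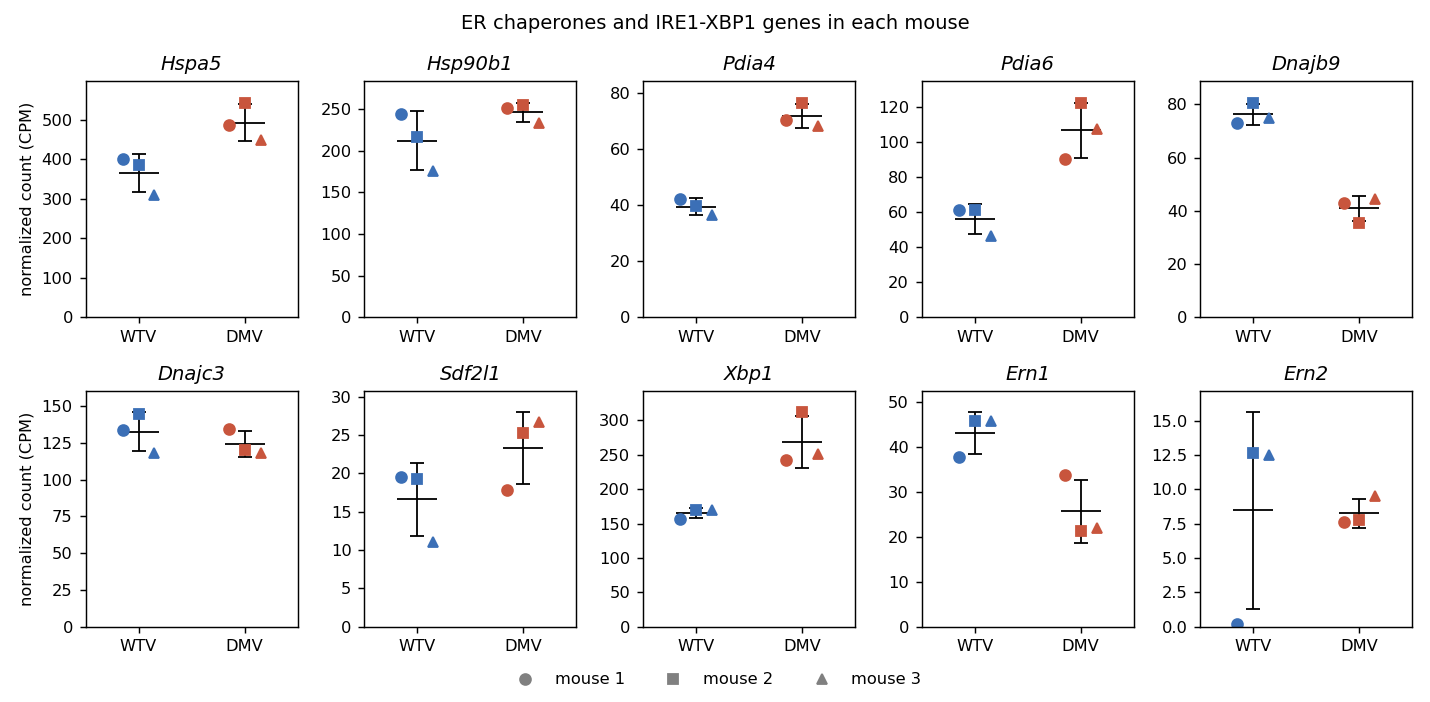
Normalized counts (CPM, linear axes from 0) of the 10 genes in each of the 3 WTV mice (blue) and 3 DMV mice (red), with marker shape giving the mouse number. Long horizontal bars are group means and error bars are 1 SD. The groups are apart for *Hspa5*, *Pdia4*, *Pdia6*, *Dnajb9*, *Xbp1* and *Ern1*, and WTV mouse 1 lies near 0 for *Ern2*.

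Promoters are shown first because several of the chaperone genes share an element. The ER stress response element (ERSE) is the site through which ATF6, with NF-Y, is known to act on chaperone genes. Its letters, CCAAT followed after 9 bases of any kind by CCACG, were searched on both strands in RefSeq promoter sequences of GRCm38.p6, a later build than the mm9 of the counts, from 250 bases before to 50 bases after each start. Of the 10 genes, 9 matched an entry, the exception being *Ern2*. *Hspa5*, *Pdia6*, *Hsp90b1* and *Dnajc3* held an ERSE, and among all 27025 genes with a promoter 0.137% did. In *Hspa5* it spans -65 to -47 from the start, in *Pdia6* -98 to -80 and in *Dnajc3* -105 to -87. *Hsp90b1* holds a pair, at -212 to -194 and, on the opposite strand, at -107 to -89. The stretches follow in the sense of each gene, with the ERSE in capitals.
*Hspa5*, chr2:34772000-34772059, + strand: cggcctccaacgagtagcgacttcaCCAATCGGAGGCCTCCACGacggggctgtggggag
*Pdia6*, chr12:17266469-17266528, + strand: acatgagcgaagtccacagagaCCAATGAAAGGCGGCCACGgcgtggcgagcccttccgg
*Hsp90b1*, chr10:86705520-86705674, - strand: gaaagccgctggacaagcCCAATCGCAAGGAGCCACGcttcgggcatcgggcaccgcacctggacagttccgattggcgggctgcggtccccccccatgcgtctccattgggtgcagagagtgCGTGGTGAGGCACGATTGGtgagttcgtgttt
*Dnajc3*, chr14:118937802-118937861, + strand: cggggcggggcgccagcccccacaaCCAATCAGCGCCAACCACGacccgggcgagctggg

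None of the 9 promoters held, on either strand, ERSE-II (ATTGG, 1 base of any kind and CCACG, in 0.0444% of genes), the unfolded protein response element UPRE (TGACGTGG, 0.714%), the cyclic AMP element CRE (TGACGTCA, 2.03%) or the ATF4 element CARE (TGATGCAA, 1.03%). ERSE, ERSE-II and UPRE share the letters CCACG on one strand or the other, and UPRE and CRE share TGACGT. These matches are letters in a window and not measured binding. The 4 promoters with an ERSE belong to 2 genes that rose, *Hspa5* and *Pdia6*, and 2 that did not pass the test, *Hsp90b1* and *Dnajc3*.

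*Hspa5* (ENSMUSG00000026864, mm9 chr2:34627490-34632051, + strand) encodes BiP, the Hsp70 chaperone of the ER lumen, which also keeps the sensors of the unfolded protein response inactive. Its normalized counts were 399.7, 386 and 309.8 CPM in WTV mice 1 to 3 and 485, 543 and 449 CPM in DMV mice 1 to 3. All DMV mice lay above all WTV mice, with means of 365 ± 48.3 and 492.5 ± 47.7 CPM (SD, n = 3 each). The log2 fold change was 0.43 ± 0.13 (SE, 1.35-fold, adjusted p = 0.0349). This call held with WTV mouse 1 left out (0.50, adjusted p = 0.0209) and was lost with any of the other 5 left out, where the adjusted p was 0.0669 and 0.114 without WTV mice 2 and 3 and 0.0623, 0.112 and 0.0524 without DMV mice 1 to 3.

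*Hsp90b1* (ENSMUSG00000020048, mm9 chr10:86152954-86168254, - strand) encodes GRP94, the Hsp90 chaperone of the ER, which folds a narrower set of client proteins. It lay at 245, 217 and 175 CPM in WTV and 251, 255 and 233 CPM in DMV. WTV mouse 1 lay above DMV mouse 3, so the groups overlapped. The log2 fold change of 0.21 ± 0.14 did not pass the test (adjusted p = 0.249). With library size alone as the scaling it was 0.41 and passed (adjusted p = 0.0315). Its position overlaps a noncoding gene on the opposite strand (*1810014B01Rik*, at most 16 counts) and another on its own (*Gm15344*, at most 24 counts).

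The 2 disulfide isomerases, which form and rearrange the disulfide bonds of proteins in the ER, showed the largest rises among the 10 genes. *Pdia4* (ENSMUSG00000025823, mm9 chr6:47746141-47763511, - strand) encodes ERp72. It lay at 42.3, 39.6 and 36.3 CPM in WTV and at 70.3, 76.7 and 68.3 CPM in DMV. The groups were far apart relative to their spread, at 39.4 ± 2.99 against 71.8 ± 4.36 CPM (SD, n = 3 each). Its log2 fold change was 0.86 ± 0.11 (1.82-fold, adjusted p = 0.000829).

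*Pdia6* (ENSMUSG00000020571, mm9 chr12:17273351-17291576, + strand) encodes P5, an isomerase that binds BiP. WTV mice 1 and 2 each lay at 61.15 CPM and WTV mouse 3 at 46.35 CPM, while the DMV mice lay at 90.3, 122 and 108 CPM. The lowest DMV mouse was above the highest WTV mouse, though the DMV mice spread more widely than those of *Pdia4*. The log2 fold change was 0.92 ± 0.16 (1.90-fold, adjusted p = 0.00264). The calls of *Pdia4* and *Pdia6* held with each of the 6 mice left out, with log2 fold changes of 0.80 to 0.92 and 0.80 to 1.04. The annotated gene *Atp6v1c2* overlaps *Pdia6* on the opposite strand and was not analysed here.

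The co-chaperones did not move together. *Dnajb9* (ENSMUSG00000014905, mm9 chr12:45306884-45311055, - strand) encodes ERdj4, a J-domain partner of BiP that is known both as a target of XBP1s and as a repressor of IRE1. It lay at 73.1, 80.7 and 74.96 CPM in WTV and at 42.8, 35.6 and 44.4 CPM in DMV. Every DMV mouse was well below every WTV mouse, with means of 76.2 ± 3.96 and 40.9 ± 4.71 CPM (SD, n = 3 each). Its log2 fold change was -0.90 ± 0.12, or 0.537 times the wild-type level (adjusted p = 0.000983), and it held with each mouse left out (-0.96 to -0.81).

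*Dnajc3* (ENSMUSG00000022136, mm9 chr14:119337154-119380924, + strand) encodes p58IPK, a BiP partner also known as an inhibitor of the sensor PERK. Its level was 134, 145 and 118 CPM in WTV and 134, 120.2 and 118 CPM in DMV. The groups overlapped almost fully, and the log2 fold change of -0.09 ± 0.12 did not pass the test (adjusted p = 0.564) and turned to 0.10 under library size alone. *Sdf2l1* (ENSMUSG00000022769, mm9 chr16:17130231-17132476, - strand) encodes a lumenal partner of the J-domain proteins. It lay at 19.5, 19.2 and 11.1 CPM in WTV and 17.9, 25.3 and 26.6 CPM in DMV. DMV mouse 1 lay among the WTV mice, while DMV mice 2 and 3 were above all of them. The log2 fold change was 0.49 ± 0.24 (adjusted p = 0.154). In the females alone (2 against 2) it was 0.78 (adjusted p = 0.0342), and under library size alone, where 38.6% of all genes passed in either direction, 0.68 (adjusted p = 0.0461).

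Of the IRE1 arm, the sensor *Ern1* fell and its target *Xbp1* rose. *Xbp1* (ENSMUSG00000020484, mm9 chr11:5420662-5425896, + strand) lay at 157, 169.7 and 169.7 CPM in WTV and at 242, 312 and 251 CPM in DMV. The WTV mice lay close together and all DMV mice lay above them, with means of 165 ± 7.53 and 268 ± 37.9 CPM (SD, n = 3 each). The log2 fold change was 0.70 ± 0.13 (1.62-fold, adjusted p = 0.00343), and it held with each mouse left out (0.57 to 0.78).

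The count of *Xbp1* does not tell its unspliced and spliced mRNA apart, since both are counted on the same gene. The stretch that IRE1 removes is shown because it is what such a count cannot resolve. It was found as the 26 bases that separate 2 annotated transcripts, at mm9 chr11:5424285-5424310 on the + strand, inside exon 4 of 5 of the unspliced form. It is printed in capitals with 20 bases on each side.
*Xbp1*: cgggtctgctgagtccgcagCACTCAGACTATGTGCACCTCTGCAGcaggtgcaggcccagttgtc

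Its removal shifts the reading frame, and the annotated coding sequences run to 267 residues for the unspliced and 371 for the spliced form. The share of spliced *Xbp1*, the direct readout of IRE1 activity, was not analysed here.

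*Ern1* (ENSMUSG00000020715, mm9 chr11:106255964-106349166, - strand) lay at 37.7, 45.75 and 45.6 CPM in WTV and at 33.7, 21.2 and 21.9 CPM in DMV. All DMV mice were below all WTV mice, but the 2 males (mouse 1 of each group) lay much closer together than the females did. Means were 43.0 ± 4.64 and 25.6 ± 7.01 CPM (SD, n = 3 each), and the log2 fold change was -0.75 ± 0.19, or 0.596 times the wild-type level (adjusted p = 0.0164). This call held without WTV mouse 1 (-0.83, adjusted p = 0.00884) or DMV mouse 1 (-0.99, adjusted p = 0.00383). Leaving out any other mouse ended it, with an adjusted p of 0.0541 and 0.0518 without WTV mice 2 and 3 and 0.0573 and 0.0655 without DMV mice 2 and 3. Under library size alone it was -0.55 and did not pass (adjusted p = 0.0596). Of the 10 genes, 2 were lower in the fit to all mice and 1, *Dnajb9*, in each of the 5 fits in which *Ern1* was lost.

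**Figure D2:**
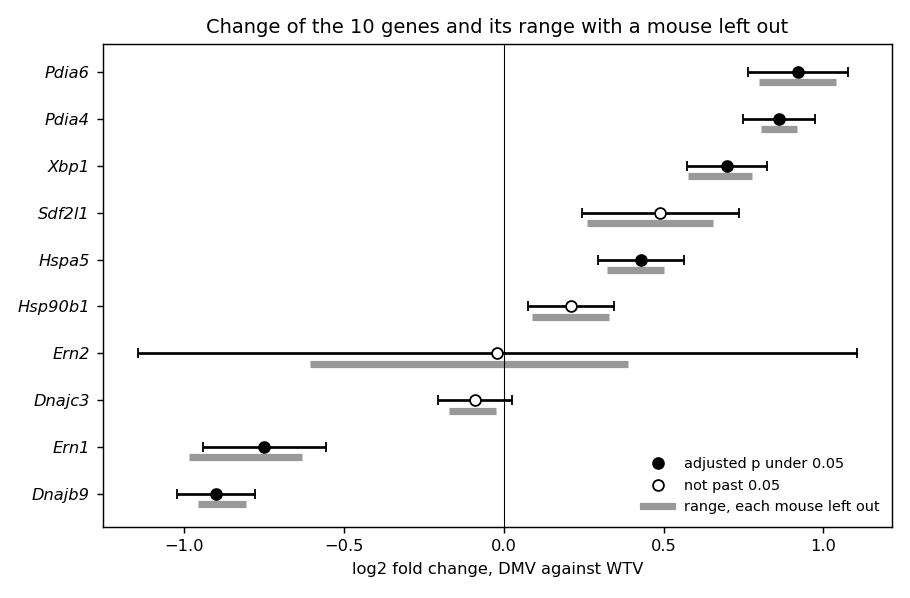
Log2 fold change, DMV against WTV, of the 10 genes from edgeR (points, filled where the adjusted p is under 0.05) with its SE (thin bars), and the range of the value over 6 fits that each leave out 1 mouse (gray bars). *Ern2* has by far the widest error bar of the 10, 1.12, and its range, -0.61 to 0.39, crosses 0.

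*Ern2* (ENSMUSG00000030866, mm9 chr7:129313407-129329730, - strand) had the lowest mean per length of the 10 genes in both groups, though in DMV its range overlapped that of *Ern1*. Whether it passed the test turned on WTV mouse 1. It had 5 counts (0.208 CPM) in WTV mouse 1, against 233 and 248 counts (12.7 and 12.5 CPM) in WTV mice 2 and 3. The DMV mice had 162, 167 and 200 counts, or 7.61, 7.75 and 9.49 CPM. All DMV mice lay between WTV mouse 1 and the other WTV mice. With all 6 mice the log2 fold change was -0.02 ± 1.12 (adjusted p = 0.989). Without WTV mouse 1 it was -0.61 (adjusted p = 0.0233), and in the females alone -0.55 (adjusted p = 0.0458). Without that mouse 37.4% of 13769 genes tested passed, 20.2% being higher and 17.1% lower. In the females alone 39.9% of 13523 genes passed, 20.9% being higher and 19% lower.

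In 5 of the 8 goblet cell markers (*Muc2*, *Tff3*, *Fcgbp*, *Zg16* and *Spdef*) the DMV mice likewise lay between WTV mouse 1 and the other WTV mice, and in the other 3 (*Agr2*, *Clca1* and *Spink4*) they lay above all WTV mice. *Muc2*, the main gel-forming mucin, lay at 11.7 CPM in WTV mouse 1, at 1139 and 1019 CPM in WTV mice 2 and 3, and at 500.5 to 598 CPM in DMV. *Fcgbp*, a mucus protein with the highest CPM of the list (not per length), lay at 62.3, 8015 and 6929 CPM in WTV and 2268 to 2895 CPM in DMV. *Agr2*, a disulfide isomerase of mucus-secreting cells, lay at 4.12, 80.1 and 98.1 CPM in WTV and 105 to 131 CPM in DMV. *Spink4* lay at 3.37, 125 and 200.3 CPM in WTV and 207 to 273 CPM in DMV. Of the 8 goblet markers, 1 rose with all 6 mice (*Clca1*) and 0 fell, while without WTV mouse 1 the same counts were 1 and 5. WTV mouse 1 was thus the lowest for *Ern2* and for all 8 markers, while the DMV mice matched the order of *Ern2* in 5 of them. The part of the goblet markers in the *Ern2* values was not tested. The other 9 genes showed no such gap in WTV mouse 1.

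**Figure D3:**
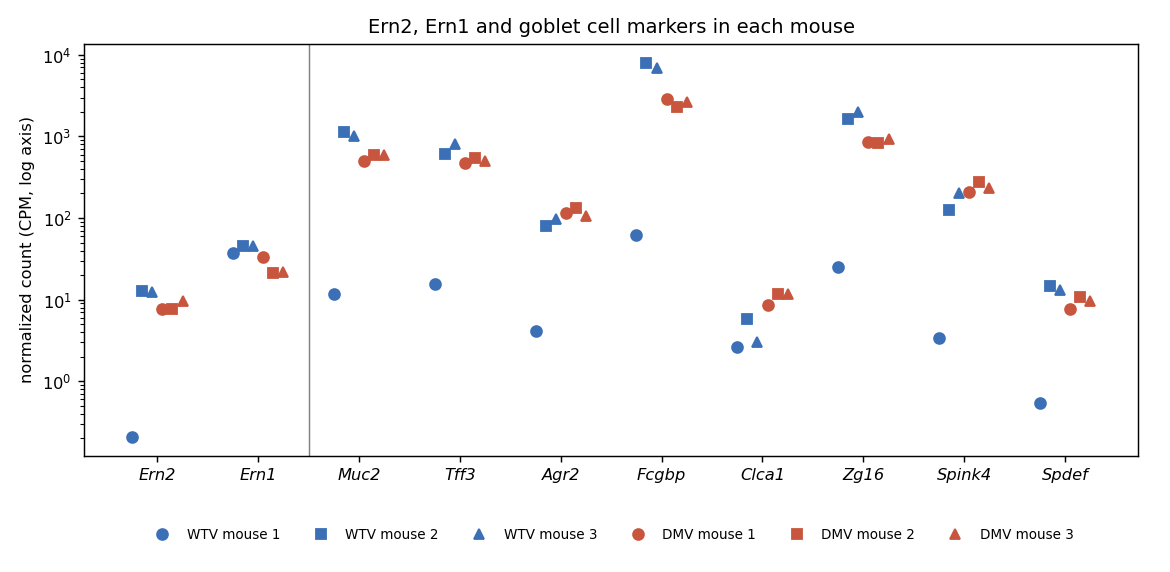
Normalized counts (CPM, log axis) of *Ern2*, *Ern1* and the 8 goblet cell markers in each mouse, with WTV in blue, DMV in red and the mouse number by marker shape. WTV mouse 1 lies far below the other 5 mice for *Ern2* and for 7 of the 8 markers but not for *Ern1*.

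Set against each other within a mouse and per length of exon sequence, the level of *Ern2* was 0.0152, 0.762 and 0.755 times that of *Ern1* in WTV and 0.620, 1.00 and 1.19 times in DMV. The ratio of *Xbp1* to *Hspa5* was 0.424, 0.476 and 0.592 in WTV and 0.540, 0.620 and 0.605 in DMV. Both ratios overlapped between the groups.

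Per kilobase of exon, *Hspa5* was the most abundant of the 10 transcripts in both groups, at 104 ± 13.8 CPM per kb in WTV and 140.2 ± 13.6 CPM per kb in DMV (SD, n = 3 each). In WTV it was followed by *Hsp90b1* (52.6 ± 8.66) and *Xbp1* (50.9 ± 2.32), whose ranges overlapped. Then came *Dnajb9* (40.9 ± 2.12), *Dnajc3* (25.5 ± 2.57) and, with overlapping ranges, *Pdia4*, *Pdia6* and *Sdf2l1* (14.97 to 15.9). *Ern1* (5.26 ± 0.568) and *Ern2* (2.85 ± 2.41) were lowest, the latter at 0.0701 in WTV mouse 1 and at 4.26 and 4.22 in WTV mice 2 and 3. In DMV *Xbp1* (82.6 ± 11.7) stood second and clear of *Hsp90b1* (61.1 ± 2.90). Next came *Pdia4* (28.9 ± 1.76), *Pdia6* (28.5 ± 4.25), *Dnajc3* (23.9 ± 1.69), *Dnajb9* (21.9 ± 2.52) and *Sdf2l1* (21.0 ± 4.25), each overlapping its neighbour in this order, while the range of *Dnajb9* lay below those of *Pdia4* and *Pdia6*. *Ern1* (3.13 ± 0.857) overlapped *Ern2* (2.79 ± 0.354). Together the 10 genes took 0.104% ± 0.00717 of the counts in WTV and 0.150% ± 0.00967 in DMV. These shares are of raw totals and not per length, so they are not on the scale of the CPM values. The scaling factors they leave out were 0.912 to 0.961 in WTV and 1.06 to 1.08 in DMV.

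The genes whose pattern over the 6 mice was nearest to that of a member were found by the root mean square difference in log2 CPM, each gene centred on its own mean, among 9312 genes with a mean of at least 5 CPM. For *Hspa5* they were *Gps1* (0.047), *Cstf1* (0.060) and *Poc1b* (0.061). For *Xbp1* they were *Aldoa* (0.030), a glycolytic enzyme gene, *Ddost* (0.051), which encodes a subunit of the ER enzyme that attaches N-linked glycans, and *Bms1* (0.063). *Trappc8* (0.051), *D15Ertd621e* (0.076) and *Malat1* (0.100) were nearest to *Ern1*. *Bcas1* (0.138), *Foxa3* (0.143) and *Tff3* (0.192), the last a goblet cell peptide, were nearest to *Ern2*, and they shared its gap in WTV mouse 1. The likeness rests on 6 libraries in 2 groups and was not tested.

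Other genes of the pathway, grouped by function, were set beside the 10. Of 24 other ER folding genes, 6 rose and 1 fell (29.2% called, against 36.8% of all genes), with a median log2 fold change of 0.29. *Calr* (0.42 ± 0.14, adjusted p = 0.0387) and *Canx* (0.44 ± 0.15, adjusted p = 0.0439), the lectin chaperones of glycoproteins, rose. *Pdia3* (0.39 ± 0.11, adjusted p = 0.0230), the isomerase that works with them, also rose. The largest rise was that of *Sil1* (1.21 ± 0.17, adjusted p = 0.00110), the nucleotide exchange factor of BiP, from 7.48 ± 0.820 to 17.3 ± 2.17 CPM (SD, n = 3 each). The 1 fall was that of *Ero1lb* (-0.97 ± 0.18, adjusted p = 0.00388), an oxidase that recharges the disulfide isomerases. The related oxidase gene *Ero1l* rose (0.57 ± 0.16, adjusted p = 0.0209). Its means were 93.2 ± 13.35 CPM in WTV and 138 ± 23.5 CPM in DMV, against 45.85 and 23.4 CPM for *Ero1lb*. *Ero1l* is named after its value was seen and is given with all 6 mice only. *P4hb* had a log2 fold change of -0.21, *Hyou1* of 0.26, *Creld2* of 0.28 and *Manf* of 0.38, and none of these passed the test. Of the calls named here, *Ero1l* apart, those of *Sil1* and *Ero1lb* held with each mouse left out. Those of *Calr*, *Canx* and *Pdia3* held in 2, 1 and 3 of 6 such fits. Without WTV mouse 1 *Canx* was at 0.46 (adjusted p = 0.0507). Without WTV mouse 3, DMV mouse 2 or DMV mouse 3 the number of folding genes that rose was 1, 2 and 2, and with the mouse numbers as a block it was 1.

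Genes for protein entry into the ER showed the most calls in 1 direction among the lists. Of 22 translocation and signal peptide genes tested, 10 rose and 0 fell (45.5% called, against 36.8% of all genes, of which 19.7% were higher), with a median of 0.47. *Sec61b*, a subunit of the translocation channel, rose (0.63 ± 0.17, adjusted p = 0.0195), while its pore subunit *Sec61a1* did not pass the test (0.33, adjusted p = 0.0587). *Sec11a*, a catalytic subunit of signal peptidase, showed the largest rise (0.65 ± 0.11, adjusted p = 0.00243), with WTV at 45.6 to 47.9 CPM and DMV at 67.1 to 78.9 CPM. *Srp54a* was near 0 and was not tested. The call of *Sec61b* was lost without WTV mouse 2, DMV mouse 2 or DMV mouse 3 (adjusted p = 0.0644, 0.0656 and 0.073), and that of *Sec11a* held in all 6 such fits. Without WTV mouse 2 or DMV mouse 2, 5 genes of this list rose.

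ER-associated degradation moves misfolded proteins out to the proteasome. Of 19 of its genes tested, 0 rose and 5 fell (26.3% called, against 36.8% of all genes, of which 17% were lower), with a median of -0.18. *Edem1* (-0.51 ± 0.12, adjusted p = 0.0124), a lectin that picks out misfolded glycoproteins, fell. *Syvn1* (-0.47 ± 0.10, adjusted p = 0.00870), the ubiquitin ligase of the pathway, also fell, and *Herpud2* showed the largest fall (-0.60 ± 0.16, adjusted p = 0.0185). *Sel1l* (-0.25) and *Herpud1* (-0.29) did not pass, and *Derl3* was near 0 and was not tested. Under library size alone 0 of the 19 fell and 1 rose. Without WTV mouse 2, WTV mouse 3 or DMV mouse 2 the number that fell was 3, and without DMV mouse 3 it was 2. The call of *Edem1* was lost without DMV mouse 3 (adjusted p = 0.0506) and that of *Herpud2* without WTV mouse 2 or 3 (adjusted p = 0.0577 and 0.0566).

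Of 10 partners and reported targets of IRE1 tested, 0 rose and 2 fell (20% called, against 36.8% of all genes), with a median of -0.09. *Pmp22*, a myelin and membrane protein gene reported as a RIDD transcript, had means of 217 ± 73.2 CPM in WTV and 8.68 ± 2.59 CPM in DMV (SD, n = 3 each), a change of -4.65 ± 0.32 on the log2 scale (adjusted p = 0.000118). *Tmbim6* (-0.34 ± 0.11, adjusted p = 0.0391), a membrane protein known to restrain IRE1, was the other, and is named after its value was seen. *Bloc1s1*, the best known RIDD transcript, had means of 0.169 and 0.188 CPM on its row of the table and was not tested. It is known as a widely expressed gene, and this row is not read here as its expression. *Scara3* and *Col6a1*, also on the list, were not analysed here. With any mouse but WTV mouse 1 left out, 1 gene of this list fell, and without WTV mouse 1, 1 rose and 3 fell.

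Of 17 genes of the PERK and ATF6 arms tested, 3 rose and 4 fell, with a median of -0.01. The share called, 41.2%, was near the 36.8% of all genes. The PERK gene *Eif2ak3* fell (-0.46 ± 0.15, adjusted p = 0.0403), as did *Ddit3* (-0.81 ± 0.25, adjusted p = 0.0363), which encodes the stress factor CHOP. *Ddit3* lay at 36.7, 19.1 and 21.1 CPM in WTV and 12.4, 14.7 and 16.7 CPM in DMV, with WTV mouse 1 the highest of the 6. Without that mouse it was -0.46 and did not pass (adjusted p = 0.0565). In the females alone it was -0.35 (adjusted p = 0.105). *Creb3l2*, which encodes a membrane-bound factor related to ATF6, showed the largest fall, from 219 ± 17.5 to 72.4 ± 5.55 CPM (-1.60 ± 0.11, adjusted p = 7.5e-05). *Ppp1r15a*, a phosphatase subunit that ends the PERK signal, showed the largest rise (0.70 ± 0.20, adjusted p = 0.0269), with means of 6.59 and 10.7 CPM in WTV and DMV. The related subunit gene *Ppp1r15b* fell (-0.69 ± 0.14, adjusted p = 0.00528), with means of 369 ± 48.7 and 228 ± 27.2 CPM (SD, n = 3 each). *Ppp1r15b* is named after its value was seen and is given with all 6 mice only. *Atf6* (0.13) and *Atf4* (-0.21) did not pass. The calls of *Eif2ak3* and *Ddit3* each held in 2 of 6 fits with a mouse left out, that of *Ppp1r15a* in 3 and that of *Creb3l2* in 6. The call of *Ppp1r15a* was lost without WTV mouse 2, WTV mouse 3 or DMV mouse 2 (adjusted p = 0.0700, 0.0767 and 0.110) and with the replicate block (adjusted p = 0.0549). The block also ended the calls of *Eif2ak3* and *Ddit3* (adjusted p = 0.081 and 0.083). Without WTV mouse 2, WTV mouse 3 or DMV mouse 2 the number that rose was 1, and without DMV mouse 2 or DMV mouse 3 the number that fell was 2.

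**Figure D4:**
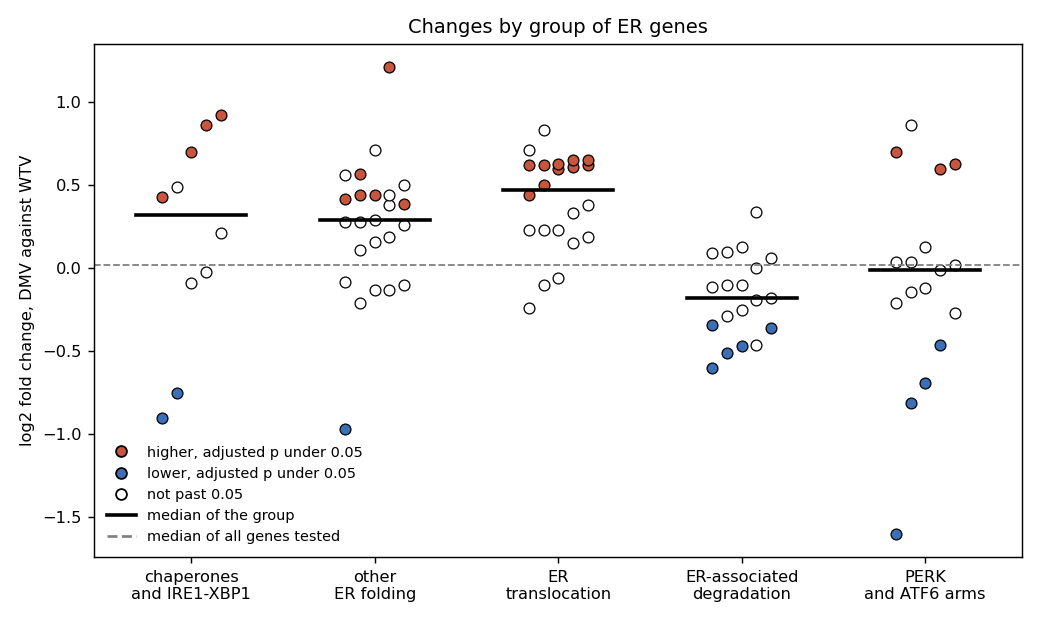
Log2 fold change, DMV against WTV, of each tested gene in the 10 genes and in 4 other groups of ER genes (red, higher and blue, lower at an adjusted p under 0.05; white, not past it), with the group median as a bar and the median of all genes tested, 0.02, as a dashed line. The translocation genes center on 0.47 and the degradation genes on -0.18.

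Cells other than enterocytes can carry high levels of chaperones, so their markers are given beside these results. Paneth cell markers took 0.112% to 0.420% of the counts in WTV and 0.826% to 1.54% in DMV, mostly on *Reg3g*, which other gut cells also express and which lay at 1218 to 2877 CPM in WTV and 7479 to 14310 CPM in DMV. Of the 7 markers, 1 rose (*Reg3g*) and 0 fell with all 6 mice, and 2 rose and 2 fell without WTV mouse 1. *Ang4* lay at 1.58, 371 and 533 CPM in WTV and 7.36 to 12.7 CPM in DMV. *Itln1* lay at 2.37, 307 and 485 CPM in WTV and 27.9 to 55.3 CPM in DMV. For *Defa17* and *Defa24* too, the DMV mice lay between WTV mouse 1 and the other WTV mice. *Mmp7* went the other way, at 0.0833, 7.29 and 11.27 CPM in WTV and 12.02 to 24.81 CPM in DMV. With all 6 mice it did not pass the test (adjusted p = 0.335). *Lyz1* lay at 79.43 to 91.79 CPM in DMV, between WTV mice 2 and 3 (64.3 and 124 CPM). WTV mouse 1 was the lowest of all mice for each of these markers as well. Plasma cell markers took 0.00696% to 0.00962% in WTV and 0.0102% to 0.0123% in DMV, most of it on *Sdc1*, which epithelium expresses and which rose (0.61, adjusted p = 0.00570). *Prdm1*, also active in other cells, held most of the rest and fell (-1.32, adjusted p = 0.00579), while *Jchain*, *Mzb1* and *Irf4* were each below 1 CPM in every mouse. *Igkc*, an immunoglobulin gene of this lineage, lay at 0.625 to 1.52 CPM in WTV and 0.603 to 2.90 CPM in DMV (0.37, adjusted p = 0.662). Of 7 pancreatic acinar markers in the table, *Cela2a*, *Cela3b*, *Pnlip*, *Amy2a5* and *Ctrb1* were also below 1 CPM throughout. *Cela1* lay at 5.22 to 6.33 CPM in WTV and 6.99 to 10.3 CPM in DMV, and *Bhlha15* at 0.541 to 1.58 CPM in WTV and 1.23 to 1.502 CPM in DMV. The list took 0.00063% to 0.000708% of the counts in WTV and 0.00094% to 0.00125% in DMV, and neither of the 2 genes tested passed. Of 6 leukocyte markers, 0 rose and 2 fell with all 6 mice, and 4 fell without WTV mouse 1. Of all genes 17% fell with all 6 mice and 17.1% without that mouse, and 19.7% and 20.2% rose. The part of all these cells in the chaperone values was not tested.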

How the data were processed

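Villus RNA of 6 mice was measured, 3 per group, as the labels give them. Raw read counts per gene, made with HISAT2 on mm9 and featureCounts, were deposited by the authors with no normalization or pooling. Strand setting and the treatment of reads shared by genes are not given in the sources used here, so overlapping genes cannot be told apart. Of 20073 Ensembl identifiers, 20032 were named by the GENCODE annotation of mm9, and 336 features are numbered transcripts outside it.

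From the counts, genes were kept by filterByExpr (13346), scaled by TMM, and tested in edgeR 4.0.16 (R 4.3.3) by glmQLFit (robust) and glmQLFTest. P-values were adjusted over all 13346 genes by Benjamini-Hochberg, at a threshold of 0.05. CPM are counts relative to TMM-scaled totals. The SE is the log2 fold change divided by the root of F. P-values measure the spread between these mice. Lists are described by counts and medians, with no set test. DESeq2 1.42.0, limma 3.58.1, other scalings, filters, covariates and subsets of mice served as alternatives. Scripts were tested on simulated data.

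The 10 genes and all lists were chosen with earlier results of these data known. Named were all 10, the largest called change of each list in either direction, a fixed set of well known genes per list, and the 3 genes nearest to *Hspa5*, *Xbp1*, *Ern1* and *Ern2*. *Tmbim6*, *Ero1l* and *Ppp1r15b* were named after their values were seen. The methods and the labels differ on EDTA strength.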

Additional observations from a re-analysis of the deposited data

Results flagged for a closer look

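The response of *Ern2* in mouse 1 of each group, the males, differed from that in the females. The log2 ratio of CPM, DMV against WTV, was 5.19 in the males and -0.55 in the females. The difference fitted by edgeR, which comes from the model and not from these ratios, was 5.70 ± 0.49 (SE, adjusted p = 0.000346, interaction of group and sex). Each group holds 1 male, so the spread behind this p comes from the females alone, and the value restates the 5 counts of *Ern2* in WTV mouse 1. Sex and that library cannot be told apart. Over all genes, 353 of 13346 passed this test, and of the 10 genes *Ern2* alone did. *Ern1* had a difference of 0.92 (adjusted p = 0.0691), with log2 ratios of CPM of -0.16 in the males and -1.08 in the females.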

How the results depend on the processing

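Library size alone as the scaling moved the median log2 fold change of all genes from 0.02 to 0.215 and that of the 10 genes from 0.32 to 0.52. Under it 3732 genes in all were higher and 1425 lower, 6 of the 10 genes were higher and 1 lower, 13 folding and 15 translocation genes rose, 0 degradation genes fell and 1 rose, 2 IRE1 partners rose and 1 fell, 2 genes of the PERK and ATF6 arms fell, *Dnajc3* turned to 0.10 and *Ern2* to 0.15. *Ern2* was also positive with limma-voom (1.55), a replicate block (0.65) and sex as a covariate (0.62), and ranged from -0.61 to 0.39 with a mouse left out. A fold threshold of 2 on the log2 scale left 406 genes higher and 302 lower in all, 0 in every list in either direction apart from the 1 IRE1 partner that fell. No filter on low counts left 1 IRE1 partner lower. In the females alone 1 degradation gene and 1 IRE1 partner rose.

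Deviations from the group mean had correlations of 0.022, -0.109 and 0.012 between same-numbered mice over 13346 genes. Between mice of unlike number they were -0.102 to 0.093. Whether the numbers mark a shared litter or day is not given in the sources used here, and these values cannot settle it. With the replicate block no call of the 10 genes changed, 1 folding gene rose, 3 degradation genes fell, 1 IRE1 partner fell, and in the PERK and ATF6 arms 1 gene rose and 2 fell.

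With each mouse left out, which leaves fewer samples, 3 to 4 of the 10 genes were higher and 1 to 3 lower. Folding genes higher numbered 1 to 6, translocation genes higher 5 to 11, degradation genes higher 0 to 1 and lower 2 to 6, IRE1 partners higher 0 to 1 and lower 1 to 3, and genes of the PERK and ATF6 arms higher 1 to 3 and lower 2 to 3. Over all genes 1812 to 2783 were higher and 1630 to 2361 lower. Per length of the longest transcript the ratio of *Xbp1* to *Hspa5* in DMV was 0.667 in place of 0.588. Of the other single-gene values, 435 kept their direction and side of the threshold, 56 fell short of it and 10 passed it. The cause of these differences between fits was not tested. The precision of *Ern2* in WTV mouse 1 is that of 5 counts.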

Other observations

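Beyond the 10 genes, 11 tested genes carried an ERSE in the promoter window, a set chosen after the data were seen and given with no test. Of these, 3 rose (*Calr*, *Canx* and *Hnrnpa3*) and 2 fell (*Syvn1* and *Pan2*), which is 45.5% called, against 36.8% of all genes, with a median log2 fold change of 0.37, against 0.02. *Hnrnpa3*, an RNA-binding protein gene, lay at 25.9 CPM in WTV and 33.6 CPM in DMV, and *Pan2*, a deadenylase subunit gene, at 47.9 and 36.6 CPM. All ERSE genes tested, the 10 genes' 4 included, numbered 15, of which 5 rose and 2 fell.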
